A study of Mus musculus with 12 samples.

Results

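A set of 8 genes that place CD8+ T cells in tissue were followed across the series: Ccr7, S1pr1, Cd44, Itgae, Itga4, Itgal, Cxcr3 and Cxcr4. They were taken by gene symbol, and they are 8 of the 54532 genes listed in each library. All 8 had a mean of at least 1 FPKM (fragments mapped to a gene, scaled by its length and by the library total) over the 12 libraries, and so were among the 11550 genes tested. The cells were primary mouse CD8+ T cells from spleen and lymph nodes, isolated, activated, given a non-targeting siRNA (siNTC) or an siRNA against Creb1 (siCreb1), and then kept for 24 h with or without trans-vaccenic acid (TVA) at 20 µM. TVA is a long-chain fatty acid of ruminant meat and milk, and Creb1 encodes CREB1, a transcription factor that acts downstream of cyclic AMP. The 4 groups were siNTC with vehicle (labelled WT, DMSO), siNTC with TVA, siCreb1 with vehicle (labelled Creb1 KD, DMSO) and siCreb1 with TVA, with 3 libraries each. All groups had therefore been activated and exposed to an siRNA, and the knockdown acted on a primary culture that keeps some Creb1 transcript, not on a knockout. No source used here says whether libraries of a group came from separate animals or cultures, so the p-values measure the spread between these libraries, which may be technical.

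T cells reach and leave tissues in steps. Selectins and chemokine receptors catch the cell at a vessel wall, integrins pulled into an active shape hold it there, and chemokine gradients guide it inside the tissue. CCR7 takes cells into lymph nodes, S1PR1 senses sphingosine 1-phosphate and lets them leave again, and the transcription factor KLF2 is known to keep S1pr1 on in resting T cells. CXCR3 and CXCR4 answer to inflammatory chemokines and to CXCL12. CD44 binds hyaluronan, and Itgal, Itga4 and Itgae encode the alpha chains of integrins that bind ICAMs, VCAM-1 or MAdCAM-1, and E-cadherin.

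Creb1 stood at 10.3 to 12.4 FPKM in the 6 siNTC libraries and at 1.17 to 1.81 FPKM in the 6 siCreb1 libraries, which left 13.4% of the mean without TVA and 13.1% with TVA (two-sided exact permutation test over 924 divisions of the libraries, p = 0.00216). Reads recovered from the FPKM values numbered 16660234 to 24602484 per library. They ran from 16660234 to 20758033 in the siNTC libraries with and without TVA and from 20760297 to 24602484 in the siCreb1 libraries, so depth moved with the siRNA. The 6 CD8 T cell markers were high in all libraries, with Cd8b1 at 822 to 941 FPKM, and their summed level was 2143 to 2176 FPKM in the siNTC libraries and 2034 to 2076 FPKM in the siCreb1 libraries. Markers of the other cell types checked, which did not include platelets, were low. The 5 B cell markers summed to 9.48 to 14.3 FPKM, of which Cd79b gave 7.77 to 12.3 FPKM and Cd79a 0.945 to 2.61 FPKM. The 3 CD4 T cell markers summed to 3.99 to 5.82 FPKM (means of 2.61 FPKM for Foxp3 and 1.27 FPKM for Cd4), and the 2 NK markers to 3.83 to 5.24 FPKM (3.14 FPKM for Klrb1c and 1.39 FPKM for Ncr1). The 4 dendritic markers stayed at or under 0.883 FPKM in sum, the 2 stromal markers at or under 0.286 FPKM and the 2 erythroid markers at or under 0.424 FPKM, with Hbb-bs at 0 in all 12 libraries. The 6 myeloid markers, led by Fcer1g and Lyz2, summed to 15.5 to 18.2 FPKM in siCreb1 cells with TVA and to 12.4 to 15.5 FPKM in the other groups. The part of depth and of these markers in the results was not tested, and in bulk RNA fewer cells of a type cannot be told apart from less RNA per cell.

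The 8 genes covered a wide range of levels. On the length-corrected FPKM scale, mean levels over the 12 libraries were 244 for Ccr7, 167 for S1pr1, 82.7 for Itgal, 82.3 for Cxcr3, 30.6 for Cxcr4, 18.8 for Itga4, 8.68 for Itgae and 6.74 for Cd44. Ccr7 ranked 180 and S1pr1 ranked 252 among the 11550 genes tested, and Cd44 ranked 6465. The study's siRNA method lists 72 h of siRNA delivery after activation, and the 24 h with or without TVA followed. At that time the cells carried high transcript levels of the lymph node and egress receptors. The level of Cd44, a gene known to be high on antigen-experienced T cells, was low. No unactivated cells were among the 12 libraries, and FPKM ranks of different genes depend on the length used for each. Counting error was small even for the low genes, with 657 to 1097 recovered reads per library for Itgae and 720 to 1097 for Cd44. The ratio of the highest to the lowest of the 12 libraries was 1.43 for Cxcr4, 1.39 for S1pr1, 1.31 for Cd44, and 1.09 for Cxcr3.

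**Figure D1:**
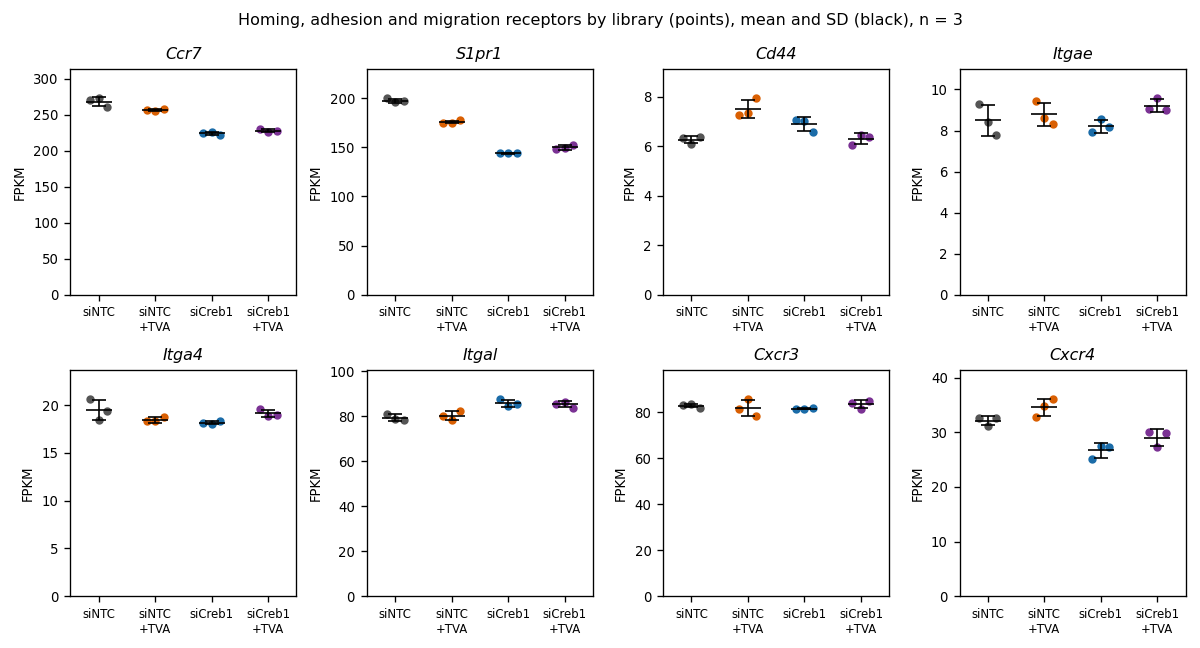
FPKM of the 8 receptors (vertical axes, each from 0) in the 3 libraries of each group (points), with the mean and SD in black. S1pr1 stands apart in every group, from 196 to 200 FPKM in siNTC cells down to 144 to 145 FPKM in siCreb1 cells, while Cxcr3 stays between 78.3 and 85.4 FPKM in all 12 libraries.

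S1pr1, the egress receptor, was lower in siCreb1 cells and also lower with TVA in siNTC cells. S1pr1 (ENSMUSG00000045092) lies on GRCm38 chromosome 3, 115710433-115715072, minus strand. Its 3 siNTC libraries read 200, 196 and 197 FPKM, those with TVA 175, 175 and 177, those with siCreb1 144, 145 and 144, and those with siCreb1 and TVA 148, 149 and 152. No library of one group overlapped another group, and siNTC was the highest. Without TVA, siCreb1 lowered S1pr1 by 27.0% (198 ± 2.09 against 144 ± 0.466 FPKM, SD, n = 3), which is a log2 change of -0.45 (SE 0.018, limma adjusted p = 1.08e-06). This was the smallest p of the 11550 genes tested, although 3.51% of them had a larger change in size. With TVA in both arms, siCreb1 lowered it by 14.7% (log2 change -0.23, SE 0.018, adjusted p = 0.000137). In siNTC cells TVA lowered it by 10.99% (log2 change -0.17, SE 0.018, adjusted p = 0.000247). In siCreb1 cells the log2 difference with TVA was 0.06 (SE 0.018, adjusted p = 0.322), so no call was made there. The difference between both TVA effects, taken as siCreb1 minus siNTC, was 0.22 (SE 0.025, adjusted p = 0.00169).

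Ccr7 had the same order of group means as S1pr1 and was lower in siCreb1 cells with and without TVA. The gene (ENSMUSG00000037944; GRCm38 chromosome 11, 99144196-99155077, minus strand) encodes the receptor for CCL19 and CCL21. It read 271, 273 and 260 FPKM in the siNTC libraries, 256, 255 and 257 with TVA, 225, 226 and 222 with siCreb1, and 230, 225 and 228 with siCreb1 and TVA. All 6 siCreb1 libraries were below all 6 siNTC libraries, and the siCreb1 groups with and without TVA overlapped. siCreb1 lowered Ccr7 by 16.3% without TVA (log2 change -0.25, SE 0.020, adjusted p = 6.18e-05) and by 11.2% with TVA (log2 change -0.17, SE 0.020, adjusted p = 0.00125). The call with TVA was lost when the values were quantile normalized (adjusted p = 0.0524) or rescaled to TPM (adjusted p = 0.0593). TVA in siNTC cells gave a log2 difference of -0.06 (SE 0.020, adjusted p = 0.0926), with no overlap between the libraries. Without the third siNTC library this difference was called, at -0.08 (adjusted p = 0.0285). In siCreb1 cells it was 0.02 (adjusted p = 0.829), and the difference between both TVA effects was 0.08 (SE 0.029, adjusted p = 0.189).

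Cxcr4, the CXCL12 receptor that guides cells to bone marrow and stroma, was lower in siCreb1 cells with and without TVA. The gene (ENSMUSG00000045382; GRCm38 chromosome 1, 128588199-128592293, minus strand) read 32.6, 31.2 and 32.6 FPKM with siNTC, 32.8, 34.9 and 36.1 with siNTC and TVA, 25.2, 27.6 and 27.3 with siCreb1, and 30.0, 27.3 and 29.9 with siCreb1 and TVA. Each siCreb1 library lay below each siNTC library. The fall was 16.9% without TVA (log2 change -0.26, SE 0.049, adjusted p = 0.00685) and 15.9% with TVA (log2 change -0.24, SE 0.049, adjusted p = 0.0130), and the second was lost on the TPM scale (adjusted p = 0.0623). TVA gave log2 differences of 0.10 in siNTC cells (95% interval -0.01 to 0.21, adjusted p = 0.271) and 0.12 in siCreb1 cells (0.01 to 0.23, adjusted p = 0.485), neither of which was called.

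Cxcr3, the receptor for the interferon-induced chemokines CXCL9 and CXCL10, passed the test in no comparison. It lies on GRCm38 chromosome X, 101731535-101734269, minus strand (ENSMUSG00000050232). Group means ran from 81.4 to 83.3 FPKM, with an SD of 0.327 to 3.58 FPKM. The 4 log2 differences lay between -0.02 and 0.03, and the 95% intervals reached as low as -0.09 (TVA in siNTC cells, and siCreb1 without TVA) and as high as 0.10 (TVA in siCreb1 cells).

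Promoter sequence was available from RefSeq (GRCm38.p6) for 4 of the 8 genes, Cxcr4, Cxcr3, Itga4 and Cd44, and the sequences of the 2 chemokine receptors are shown because one fell with siCreb1 and the other did not pass the test. Each is the 250 bases before the start annotated by RefSeq, read on the gene's strand 5′ to 3′. That start can differ from the gene positions given above. The Cxcr3 window begins at 101734148, and the gene as placed above ends at 101734269, so part of this window lies inside it. Capitals mark CACCC, the core letters bound by KLF factors.
Cxcr4 (chr1:128592300-128592549, minus strand): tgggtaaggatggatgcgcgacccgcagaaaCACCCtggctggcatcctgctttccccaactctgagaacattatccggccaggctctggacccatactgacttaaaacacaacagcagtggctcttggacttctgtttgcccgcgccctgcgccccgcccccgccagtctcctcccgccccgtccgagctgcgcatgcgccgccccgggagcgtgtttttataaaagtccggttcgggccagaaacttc
Cxcr3 (chrX:101734148-101734397, minus strand): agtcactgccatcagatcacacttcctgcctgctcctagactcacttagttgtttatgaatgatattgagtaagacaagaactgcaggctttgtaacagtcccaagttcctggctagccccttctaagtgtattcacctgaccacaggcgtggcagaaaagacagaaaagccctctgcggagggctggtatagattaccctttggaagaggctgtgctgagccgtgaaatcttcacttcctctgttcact

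Neither these windows nor those of Itga4 and Cd44 held the full cyclic AMP response element TGACGTCA, its shorter core TGACG or the FOXO letters TGTTTAC, searched on both strands. The core lies within the full element. Among 32851 promoter windows of the same length, 1.55% held the full element, 17.8% the core and 3.17% the FOXO letters. CACCC on either strand occurred in 52.0% of all windows, and in those of Cxcr4 (once, 219 to 215 bases before the start) and Itga4 (4 times). The windows of Cxcr4 and Cxcr3 differed in base composition, at 61.2% and 48.0% G or C with 19 and 3 CG pairs, against medians of 52.4% and 6 over all windows. The search says only which letters lie in these windows.

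Cd44, the hyaluronan receptor, rose with TVA in siNTC cells, was not called for TVA in siCreb1 cells, and had TVA effects that differed between both. The gene (ENSMUSG00000005087; GRCm38 chromosome 2, 102811141-102901665, minus strand) read 6.33, 6.11 and 6.36 FPKM with siNTC, 7.24, 7.33 and 7.94 with TVA, 7.08, 7.04 and 6.58 with siCreb1, and 6.06, 6.47 and 6.39 with siCreb1 and TVA. The siNTC libraries with TVA were the highest, above all the other groups, and the libraries with siNTC alone overlapped those with siCreb1 and TVA. TVA raised Cd44 by 19.7% in siNTC cells (log2 change 0.23, SE 0.045, adjusted p = 0.0117). When only the 6 libraries compared were fitted this call was lost (adjusted p = 0.0700). In siCreb1 cells the log2 difference was -0.11 (SE 0.045, adjusted p = 0.457). The difference between both TVA effects was -0.34 (SE 0.063, adjusted p = 0.0205). That call was lost without the second siNTC library (adjusted p = 0.0510), and without the first (adjusted p = 0.0607) or second (adjusted p = 0.0562) siCreb1 library. It was also lost without the first siCreb1 library with TVA (adjusted p = 0.0556), on the TPM scale (adjusted p = 0.0709) and with a replicate block (adjusted p = 0.0544). The value stayed between -0.39 and -0.30 in all alternatives. siCreb1 lowered Cd44 by 15.96% among TVA-treated cells (log2 change -0.22, SE 0.045, adjusted p = 0.0138), and the call was lost without the first siCreb1 library with TVA (adjusted p = 0.0551) and on the TPM scale (adjusted p = 0.0845). Without TVA the difference was 0.12 (adjusted p = 0.104). A small nuclear RNA gene on the other strand within Cd44, Gm23731, was at 0 in all libraries.

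**Figure D2:**
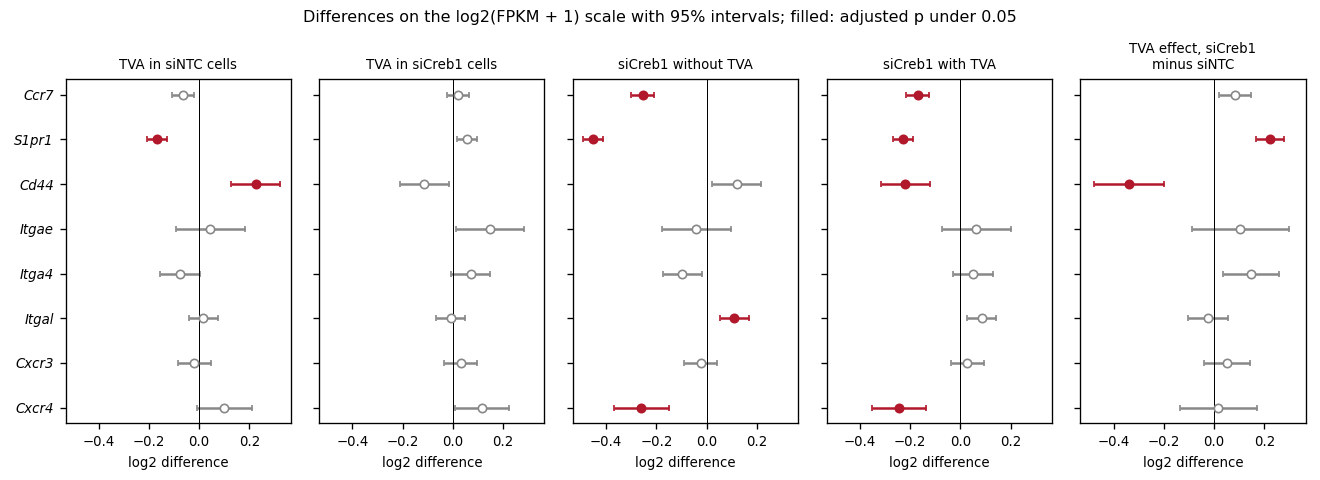
Log2 differences of the 8 receptors (horizontal axes, log2(FPKM + 1) scale) with 95% intervals in the 4 comparisons and for the TVA effect in siCreb1 minus that in siNTC cells; filled points have a limma adjusted p under 0.05. S1pr1 is called in 4 of the 5 panels, with -0.45 as the largest change, and no gene is called for TVA in siCreb1 cells.

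Among the integrin alpha chains, Itgal alone was called, and only in 1 comparison. Itgal (ENSMUSG00000030830; GRCm38 chromosome 7, 127296260-127335138, plus strand) pairs with Itgb2 to form LFA-1. It read 81.2, 78.8 and 78.2 FPKM with siNTC, 80.2, 78.2 and 82.5 with TVA, 87.5, 84.5 and 85.4 with siCreb1, and 85.6, 86.4 and 83.8 with siCreb1 and TVA, and every siCreb1 library was above every siNTC library. Without TVA, siCreb1 raised it by 8.04% (log2 change 0.11, SE 0.026, adjusted p = 0.0190). This call was lost without the second siNTC (adjusted p = 0.0550), the third siNTC (adjusted p = 0.0574) or the first siCreb1 library (adjusted p = 0.0712), and when only the 6 libraries compared were fitted (adjusted p = 0.0654). With TVA the difference was 0.09 (SE 0.026, adjusted p = 0.0621), and it was called after quantile normalization (adjusted p = 0.0383) and on recovered reads (adjusted p = 0.00482). TVA gave 0.02 in siNTC and -0.01 in siCreb1 cells, neither called.

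Itga4 and Itgae passed the test in no comparison. Itga4 (ENSMUSG00000027009; GRCm38 chromosome 2, 79255426-79333123, plus strand), the alpha chain shared by VLA-4 and the gut-homing integrin, had group means between 18.2 and 19.5 FPKM. Its siCreb1 difference without TVA was -0.10 (adjusted p = 0.103), and it was called, at -0.13, without the second siNTC library (adjusted p = 0.0323). Itgae (ENSMUSG00000005947; GRCm38 chromosome 11, 73090583-73147446, plus strand), which encodes CD103 and marks epithelial residence, had group means of 8.22 to 9.21 FPKM. Its most separated groups were siCreb1 with and without TVA (log2 difference 0.15, SE 0.062, adjusted p = 0.485), where the libraries did not overlap. Itgae, Itga4 and Cxcr3 were grouped because 0 of their 15 limma tests were called, so that count was fixed by the choice. Of these tests, 3 had an unadjusted p under 0.05, and limma-voom on recovered reads called 0.

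The span of Itgae from start to end overlaps that of Haspin, a histone H3 kinase gene encoded on the opposite strand. No source used here says whether the counting used strand. Without strand, reads in bases counted for both genes could not be told apart, and whether their exons share bases was not checked. Haspin read 7.02, 7.04 and 7.35 FPKM with siNTC, 9.80, 9.11 and 8.64 with TVA, 10.1, 9.27 and 9.96 with siCreb1, and 9.86, 9.16 and 9.43 with both. It rose with TVA in siNTC cells (log2 change 0.32, SE 0.049, adjusted p = 0.00246) and with siCreb1 without TVA (0.40, SE 0.049, adjusted p = 0.000710), in neither of which Itgae was called. Itga4 overlaps Cerkl in the same way, but Cerkl stood at 0.250 FPKM.

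The beta chains had higher FPKM than their alpha partners in every library. Ratios between genes depend on the length used for each, which was 13978 bases for Itga4. Itgb2 stood at a median of 1.65 times Itgal (1.54 to 1.74 over the 12 libraries), Itgb1 at 1.85 times Itga4 (1.71 to 2.03), Itgb7 at 16.6 times Itga4 (15.7 to 17.3) and Itgb7 at 36.0 times Itgae (32.2 to 40.6), all on the FPKM scale. Mean levels were 311 FPKM for Itgb7, 137 FPKM for Itgb2 and 34.7 FPKM for Itgb1. Of the 15 limma tests of these 3 beta chains, 0 were called, 5 had an unadjusted p under 0.05, and limma-voom on recovered reads called 1. With 852, 62, 1586, 1172 and 259 of the 11550 genes tested called in the 5 comparisons, 0 of 15 is near the share over all genes.

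**Figure D3:**
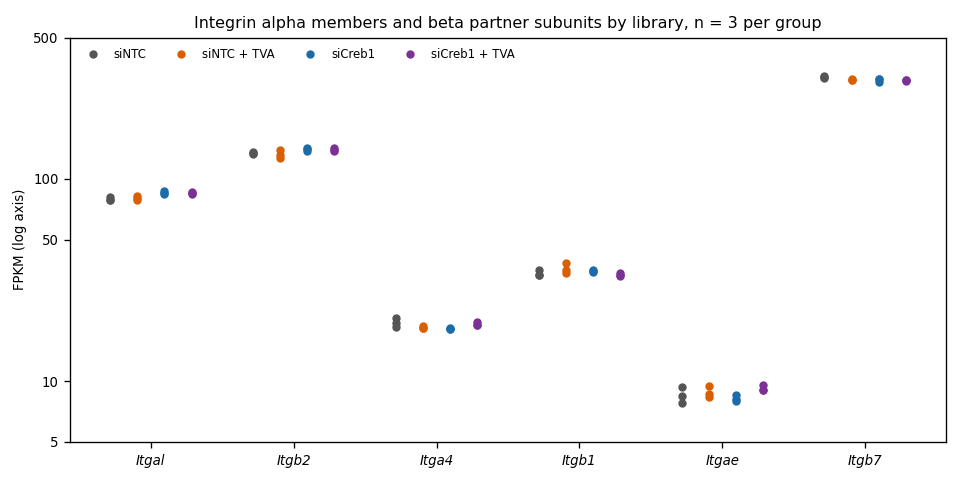
FPKM (log axis) of the alpha chains Itgal, Itga4 and Itgae and the beta chains Itgb2, Itgb1 and Itgb7 in the 3 libraries of each group. Itgae stays between 7.78 and 9.57 FPKM while Itgb7, its partner, has a mean of 311 FPKM.

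Counted over the 8 receptors, TVA in siNTC cells raised 1 (Cd44) and lowered 1 (S1pr1), where 4.49% of all genes tested were called higher and 2.88% lower. TVA in siCreb1 cells changed 0 by limma, with 4 at an unadjusted p under 0.05 and 0 by limma-voom, where 0.121% of all genes were called higher and 0.416% lower. siCreb1 without TVA raised 1 (Itgal) and lowered 3 (S1pr1, Ccr7, Cxcr4), against 6.52% and 7.21% of all genes. siCreb1 with TVA raised 0 and lowered 4 (S1pr1, Ccr7, Cxcr4, Cd44), against 4.64% and 5.51%, and 5 of the 8 had an unadjusted p under 0.05. For the difference between both TVA effects, 1 was called higher (S1pr1) and 1 lower (Cd44), against 0.459% and 1.78%. The comparisons share groups: TVA in siNTC cells and siCreb1 without TVA use the same siNTC libraries, and the siCreb1 comparison with TVA uses the same siNTC libraries with TVA as the TVA comparison, so these counts are not independent of each other. The 8 genes were chosen with earlier results of these data known. The shares over all genes therefore give scale only, and the counts cannot be set against them as a test. The mean summed level of the 6 CD8 T cell markers was 5.82% lower with siCreb1 without TVA and 4.13% lower with TVA, and that of the 6 myeloid markers was 14.3% lower without TVA and 23.8% higher with TVA. Median log2 differences over the 8 genes were -0.002, 0.04, -0.07, -0.07 and 0.07 in this order, beside -0.006, -0.001, -0.001, -0.01 and 0.002 over all genes tested.

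Other genes of the egress pathway were called too. Of 19 listed genes of sphingosine 1-phosphate handling and lymphoid egress, 11 were tested, and siCreb1 without TVA raised 1 and lowered 5, with a median log2 difference of -0.16, where 6.52% of all genes tested were called higher and 7.21% lower. These shares apply to the siCreb1 counts without TVA of the lists that follow, and 4.64% and 5.51% to those with TVA. The lists were also chosen with earlier results of these data known, so here too the shares give scale only. S1pr4, a second sphingosine 1-phosphate receptor, read 118, 124 and 112 FPKM with siNTC, 104, 105 and 104 with TVA, 82.4, 85.5 and 84.5 with siCreb1, and 89.7, 86.3 and 90.4 with both. It fell by 28.6% with siCreb1 (log2 change -0.48, SE 0.033, adjusted p = 2.72e-05), by 14.98% with siCreb1 among TVA-treated cells (-0.23, adjusted p = 0.00304) and by 11.3% with TVA in siNTC cells (-0.17, adjusted p = 0.0105). The difference between both TVA effects was 0.25 for S1pr4 (SE 0.047, adjusted p = 0.0217).

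Klf2, the transcription factor known to drive S1pr1, read 293, 330 and 286 FPKM with siNTC, 292, 258 and 263 with TVA, 212, 203 and 214 with siCreb1, and 239, 232 and 233 with both. It fell by 30.8% with siCreb1 (log2 change -0.53, SE 0.057, adjusted p = 0.000349) and by 13.4% with siCreb1 among TVA-treated cells (-0.20, adjusted p = 0.0464). Its TVA differences were -0.16 in siNTC cells (adjusted p = 0.133) and 0.16 in siCreb1 cells (adjusted p = 0.379), and the difference between them was 0.32 (SE 0.081, adjusted p = 0.0750). Cd69, which encodes a membrane protein known to pull S1PR1 off the cell surface, rose by 21.3% with siCreb1 without TVA (log2 change 0.25, SE 0.066, adjusted p = 0.0322), at 8.75, 8.92 and 7.80 FPKM against 6.36, 7.44 and 7.20. Mfsd2b, a sphingosine 1-phosphate exporter, fell in the same comparison from 2.19 to 1.46 FPKM (adjusted p = 0.0221), and Sgpp1, a sphingosine 1-phosphate phosphatase, fell by 12.3% with siCreb1 among TVA-treated cells (adjusted p = 0.0201).

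**Figure D4:**
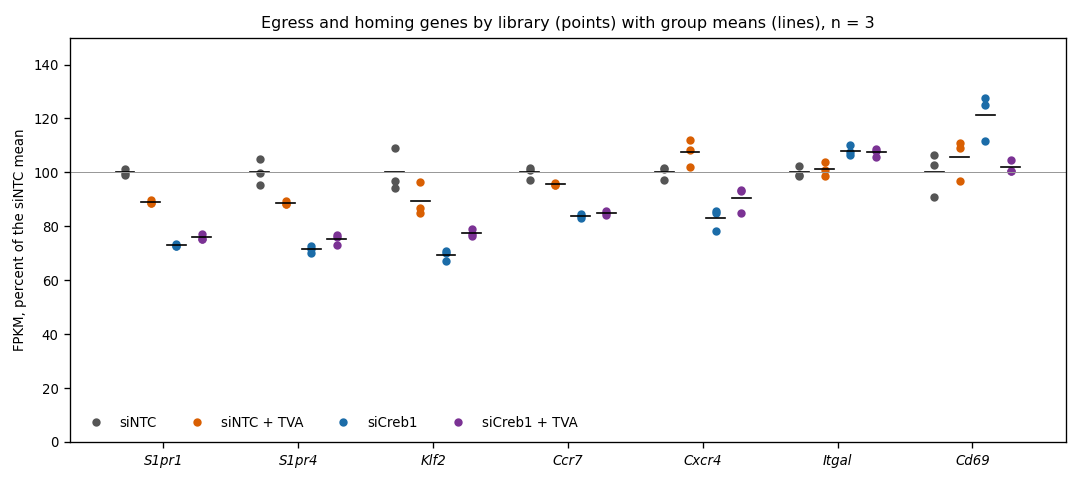
FPKM of S1pr1, S1pr4, Klf2, Ccr7, Cxcr4, Itgal and Cd69 as a percent of the siNTC mean (vertical axis from 0), in the 3 libraries of each group (points) with group means (lines). S1pr1, S1pr4 and Klf2 lie lowest in siCreb1 cells without TVA, and Itgal and Cd69 lie above the siNTC mean there.

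Of the 12 selectin, sialomucin and glycosylation genes tested, siCreb1 lowered 5 and raised 0 without TVA (median -0.11), Selp and St3gal6 among them, and lowered 3 and raised 0 with TVA, including the sialomucin Spn by 8.92% (adjusted p = 0.0124) and Selplg, the P-selectin ligand, by 7.43% (adjusted p = 0.0230).

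Of 20 other chemokine receptors, 5 were tested, and they moved both ways. siCreb1 raised 1 and lowered 2 without TVA, and raised 0 and lowered 1 with TVA. TVA in siNTC cells raised 1 and lowered 1, where 4.49% of all genes tested were called higher and 2.88% lower. Cxcr6, a receptor of tissue-resident T cells, fell by 19.5% with siCreb1 (-0.30, SE 0.035, adjusted p = 0.000654) and by 14.4% with siCreb1 among TVA-treated cells (adjusted p = 0.00573). Cxcr5, the receptor that leads cells into B cell follicles, fell by 21.8% with siCreb1 (adjusted p = 0.0304), and Ccr9, the small intestine homing receptor, fell by 8.71% with TVA in siNTC cells (adjusted p = 0.0417).

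Of 24 other integrin subunits, 9 were tested, and siCreb1 lowered 3 and raised 0 both without and with TVA, Itga2b, Itga6 and Itgb3 in each case. Itga2b, the alpha chain best known from platelets, read 12.4, 13.5 and 11.6 FPKM with siNTC and 7.68, 8.14 and 8.05 with siCreb1, a fall of 36.4% (log2 change -0.59, SE 0.055, adjusted p = 0.000152). With TVA it fell by 17.96% (-0.26, adjusted p = 0.0163). Platelet markers were not among the cell type markers checked, so the part of platelet RNA in these levels was not tested. Itga6, a laminin receptor chain, fell by 19.7% (adjusted p = 0.00221) and 13.9% (adjusted p = 0.0187), and Itgb3, the beta partner of Itga2b, by 9.93% (adjusted p = 0.0214) and 10.2% (adjusted p = 0.0250). TVA changed 0 of the 9 in siNTC cells by limma, with 3 at an unadjusted p under 0.05 and 0 by limma-voom. This is near the shares over all genes of 4.49% higher and 2.88% lower.

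Of 20 genes that switch integrins on or tie them to the cytoskeleton, 19 were tested, and they moved both ways. siCreb1 without TVA raised 1 and lowered 6, among them Stk4, the kinase MST1, by 11.2% (adjusted p = 0.00219), the small GTPase Rap1b by 8.89% (adjusted p = 0.0175), and the adaptor gene Vcl, which was low (1.81 against 1.17 FPKM, 0.0437). Fyb, which encodes the adaptor ADAP, was the one that rose, by 7.89% (adjusted p = 0.0287). With TVA, siCreb1 raised 3, the kindlin-3 gene Fermt3 by 13.7% (adjusted p = 0.00286), Fyb by 10.7% (adjusted p = 0.0111) and the talin gene Tln1 by 5.34% (adjusted p = 0.0371), and lowered Rap1a by 12.4% (adjusted p = 0.0131) and Stk4 by 7.42% (adjusted p = 0.0230). TVA lowered Rassf5, the RAP1 effector RAPL, by 7.99% (adjusted p = 0.0128) and Ptk2b by 7.70% (adjusted p = 0.0422) in siNTC cells, and raised Rasgrp2, a RAP1 exchange factor, by 12.8% in siCreb1 cells (adjusted p = 0.0243).

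Of 30 genes that carry the signal of chemokine receptors and set cell polarity, all tested, siCreb1 lowered 7 and raised 0 without TVA (median log2 difference -0.05), and lowered 3 and raised 0 with TVA. Grk2, a kinase that turns such receptors off, fell by 10.4% with siCreb1 (adjusted p = 0.00202) and by 8.79% with TVA in siNTC cells (adjusted p = 0.00612). Coro1a, an actin regulator needed for T cell egress, fell by 10.4% (adjusted p = 0.00383) without TVA and by 6.68% (adjusted p = 0.0403) with TVA. Rhoh fell by 11.2% without TVA (adjusted p = 0.00460), and Gnai2, a G protein chain coupled to these receptors, by 7.60% with TVA (adjusted p = 0.0163). Rgs16, a brake on G protein signals, fell from 2.30 to 1.48 FPKM with TVA (adjusted p = 0.0301). Pik3r5, a regulatory chain of PI3K gamma, fell by 9.02% with TVA in siNTC cells (adjusted p = 0.00858).

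Of 30 transcription factors and TGF-beta pathway genes that set homing receptors, 26 were tested. siCreb1 without TVA raised 1 and lowered 9 (median log2 difference -0.07), and TVA in siNTC cells raised 0 and lowered 4, against 4.49% and 2.88% of all genes. Smad7, an inhibitor of TGF-beta signalling, fell by 21.3% with siCreb1 (log2 change -0.33, SE 0.048, adjusted p = 0.00193) and by 15.3% with TVA in siNTC cells (-0.23, adjusted p = 0.0160), and the difference between its TVA effects was 0.31 (SE 0.069, adjusted p = 0.0475). Tgfbr2, the type 2 receptor of TGF-beta, a factor known to induce Itgae, fell by 10.7% with TVA in siNTC cells (adjusted p = 0.00114), and Foxo3 by 9.49% (adjusted p = 0.0338). Both were also lower with siCreb1 than with siNTC. Group means of Tgfbr2 were 35.3 FPKM with siNTC, 31.5 with TVA, 31.1 with siCreb1 and 30.3 with both. Those of Foxo3 were 17.1, 15.5, 15.8 and 15.2 FPKM in the same order. Klf3, a KLF family repressor, fell by 18.9% (adjusted p = 0.00290) and Ski, a TGF-beta pathway corepressor, by 17.2% (adjusted p = 0.0215) with siCreb1 without TVA, where Tgfbr1 rose by 8.65% (adjusted p = 0.0368). Runx3, a factor known to act on Itgae, was the single call with siCreb1 in TVA-treated cells, a rise of 11.2% (log2 change 0.15, SE 0.030, adjusted p = 0.0124).

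Of 22 adhesion genes of the immunoglobulin and SLAM families, 18 were tested, and 2 were called, both with siCreb1 in TVA-treated cells, a count near the shares over all genes of 4.64% higher and 5.51% lower: Slamf7 rose by 33.9% (adjusted p = 0.0189) and Icam2, a ligand of LFA-1, fell by 10.3% (adjusted p = 0.0381). This was also the comparison in which the summed myeloid markers were higher, at 15.5 to 18.2 against 12.7 to 13.9 FPKM, and the part of that difference was not tested. Of 18 genes for ligands of the 8 receptors, 4 were tested. In 20 limma tests 0 were called, 2 had an unadjusted p under 0.05, and limma-voom called 1. With 852, 62, 1586, 1172 and 259 of the 11550 genes tested called in the 5 comparisons, 0 of 20 is near the share over all genes.

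Among all genes tested, those whose log2 levels over the 12 libraries were most like a receptor's were found by Pearson's r, as a description. The points share libraries and group differences. For S1pr1 they were S1pr4 (r = 0.983) and Lfng, a Notch-modifying glycosyltransferase gene (0.982), and for Ccr7 they were Lfng (0.987) and S1pr4 (0.984). Cxcr4 was most like St3gal6 (0.965), a sialyltransferase gene, and Sptlc1 (0.945), which encodes a chain of the first enzyme of sphingolipid synthesis. Itgal was most like Apobec3 (0.950) and Prpf8 (0.943), and Itga4 like Anxa11 (0.910) and Ranbp10 (0.885). Cd44 was most like Rnf168 (0.909) and Syne2 (0.890), Itgae like St3gal1 (0.889) and Gsk3b (0.859), and Cxcr3 like Ddhd1 (0.859) and Caap1 (0.857). Among the 8 receptors themselves, r was 0.980 between Ccr7 and S1pr1, 0.797 between Ccr7 and Cxcr4, and -0.871 between Ccr7 and Itgal, and lay between -0.06 and 0.07 for S1pr1 with Cd44, Itgae and Cxcr3.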

How the data were processed

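RNA sequencing libraries (SMARTER mRNA-Seq) of 12 samples in 4 groups were used. The authors deposited 1 table per library with an FPKM value for each of 54532 genes, and the submitters' processing notes name GRCm38 and mm10. The aligner, counter and annotation release are not given in the sources used here. Positions of the 8 genes equalled those of GENCODE vM21. The FPKM values resolved into whole reads, within 0.05 of a read, for at least 99.995% of values per library, which gave relative depth. FPKM correct for length and total reads, so a gene's value also depends on all other genes.

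Groups came from the sample labels. One limma model (version 3.58.1, R 4.3.3) of log2(FPKM + 1) over all 12 libraries, with a mean-variance trend, was fitted to 11550 genes with a mean of at least 1 FPKM, and 5 comparisons were tested two-sided with Benjamini-Hochberg adjustment over all genes at 0.05. Fold changes on this scale understate those of low genes. Percent changes are ratios of group mean FPKM. The fit was also run on simulated counts with the same dispersion for every gene. That setting is simpler than these data, and no result here rests on it. Libraries of a group differed by 3.54 to 5.29 times the counting variance, so no 2 were the same library.

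The 8 genes and all gene lists were chosen with earlier results of these data known. From each list and comparison, at most the 3 largest rises and 3 largest falls with an adjusted p under 0.05 and no overlap between libraries are named (overlap was not asked for the difference between TVA effects), with Creb1, the beta chains, Klf2, Cd69, other cells' markers with a mean of at least 1 FPKM and, per receptor, the 2 genes of highest Pearson's r. Some genes named by this rule are not reported here. Haspin was added because it overlaps Itgae, after its values were seen. The alternatives are a pseudocount of 0.1, no filter, a filter at 5 FPKM, quantile normalization, TPM, a replicate block, no trend, limma-voom on recovered reads, only the libraries compared, and leaving out each library.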

Additional observations from a re-analysis of the deposited data

Results flagged for a closer look

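By the interaction term of the limma model, 5 named genes were called. Of all 11550 genes tested, 0.459% were called higher and 1.78% lower. S1pr4 and Smad7 were named because they passed the test, and Haspin after its values were seen, so the count of 5 cannot be set against these shares. The term is the TVA effect in siCreb1 minus that in siNTC cells on the log2 scale. The values were 0.22 for S1pr1 (SE 0.025, adjusted p = 0.00169), -0.34 for Cd44 (SE 0.063, adjusted p = 0.0205), 0.25 for S1pr4 (SE 0.047, adjusted p = 0.0217), 0.31 for Smad7 (SE 0.069, adjusted p = 0.0475) and -0.36 for Haspin (SE 0.069, adjusted p = 0.0227). S1pr1, S1pr4 and Smad7 were lower with TVA in siNTC cells, where Cd44 and Haspin were higher, and none of the 5 was called for TVA in siCreb1 cells.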

How the results depend on the processing

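Of the 12 called differences of the 8 receptors, 6 kept their call under every alternative run (21, and 20 for the interaction), which were S1pr1 in its 4 calls, and Ccr7 and Cxcr4 with siCreb1 without TVA. The other 6 lost it under at least 1, and none changed direction. The number of receptors called moved from 2 to 1 for TVA in siNTC cells when only the libraries compared were fitted, from 4 to 1 for siCreb1 with TVA on the TPM scale, and from 2 to 1 for the difference between TVA effects on the TPM scale and with a replicate block, and it was between 1 and 2 when libraries were left out. Replicate numbers were shared by label only: deviations of same-numbered libraries correlated at -0.06 to 0.06 over 18 pairs. With the block, Cd44 had an adjusted p of 0.0544 for that difference, and the other 11 calls were kept.

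All 17 reversals were of differences that were not called. Leaving out single libraries moved the TVA difference in siNTC cells from -0.0104 to 0.1051 for Itgae, from -0.0031 to 0.0347 for Itgal and from -0.0521 to 0.0101 for Cxcr3. In siCreb1 cells it moved that of Itgal from -0.0192 to 0.0057, with 0.0052 after quantile normalization and 0.0054 by limma-voom. The siCreb1 difference without TVA ran from -0.095 to 0.0205 for Itgae, with 0.0023 as TPM, and was 0.0041 for Cxcr3 after quantile normalization and 0.0232 as TPM. The siCreb1 difference of Cxcr3 with TVA ran from -0.002 to 0.0602, and the interaction of Cxcr4 from -0.0236 to 0.0599. The cause was not tested.

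Over all genes, 852, 62, 1586, 1172 and 259 were called in the 5 comparisons. Fits of only the libraries compared called 368, 39 and 817 in the first 3. TPM called 556 and 37 with TVA, 740 for siCreb1 with TVA and 152 for the interaction. With all genes above 0, 563, 992 and 683 were called for TVA in siNTC cells and for siCreb1 without and with TVA. The block called 34 and limma-voom 157 for TVA in siCreb1 cells, and limma-voom 446 for the interaction. Leaving out libraries took these counts as low as 558, 30, 1020, 599 and 168. Each receptor had at least 657 recovered reads in every library.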
